A study of Mus musculus with 9 samples.

Results

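The aminoacyl-tRNA synthetases, the enzymes that join each amino acid to its transfer RNA, were examined in RNA sequencing of mouse bone marrow-derived macrophages (BMDMs), the precursors from which osteoclasts are made in culture. The members were selected by gene symbol (a letter for the amino acid followed by ars, alone or with the ending 1, 2, a, b or l2, and Eprs), and this rule found 38 of the 28379 genes in the deposited table. The family was picked because its levels in the vitamin-treated cells were already known to differ from those with RANKL alone, so for that contrast the values below describe the members and test nothing about them. Of the 38 genes, 19 encode cytosolic enzymes or subunits, 2 (Gars and Kars) encode enzymes for both compartments and 17 encode mitochondrial enzymes.

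The cells came from C57BL/6J mice that were 10 weeks old. All were grown with 20 ng/ml of the macrophage growth factor M-CSF. The PBS group received phosphate-buffered saline, and the RANKL group received 100 ng/ml of RANKL, the cytokine that drives osteoclast formation. A further group, RANKL + Vit D + K (the vitamin group), was given the same RANKL with 1000 nM vitamin D (calcitriol) and 20 μM vitamin K (menaquinone-4). The treatment lasted 48 h. The vitamin K dose is that of the labels, and the methods give another dose. Each group had 3 libraries with 65915112 to 68229647 counts per library. No source says whether these came from separate cultures or mice, or which RNA was pooled for a library, so every p-value measures only the spread between these libraries. The cells of the vitamin group always received both vitamins together, so the effect of either one cannot be told apart from that of the other.

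Each synthetase recognises its amino acid and its transfer RNAs, activates the amino acid with ATP and transfers it to the RNA, and the ribosome then depends on these charged transfer RNAs. Animal cells keep separate sets for the cytosol and for the mitochondria, both encoded in the nucleus, and several cytosolic synthetases sit together in a multisynthetase complex held by the scaffold proteins Aimp1, Aimp2 and Eef1e1. Many genes for cytosolic synthetases are known targets of ATF4, the transcription factor made when eIF2α is phosphorylated, which acts with C/EBP proteins at a composite site in its target genes.

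The letters of that composite site, TGATGNAA (N for any base, either strand), were searched in the promoters of the members, and windows that held them are shown so that each match can be read in its place. RefSeq promoter sequences on GRCm38.p6, from 250 bases before to 50 bases after the start of each gene, were matched by gene identifier for 28 of the 38 members, and 5 of these genes held the letters. A window from each is shown. Each line gives 30 bases in the direction of the gene, with the match in capitals.
Aars, chr8:111033840-111033869, plus strand: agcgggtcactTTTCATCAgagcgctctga
Gars, chr6:55037960-55037989, plus strand: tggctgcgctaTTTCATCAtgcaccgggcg
Iars, chr13:49682126-49682155, plus strand: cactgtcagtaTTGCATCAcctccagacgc
Tars, chr15:11399655-11399684, minus strand: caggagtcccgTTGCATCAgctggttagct
Yars, chr4:129189895-129189924, plus strand: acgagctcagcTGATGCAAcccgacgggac
The match lay on the gene's own strand in Yars and on the opposite strand in the other windows shown. It began 30 bases before the start in Gars and 15 before it in Tars, and at bases 10, 8 and 4 of the transcript in Aars, Iars and Yars. These positions count from the RefSeq starts, which differ from the gene bounds in the deposited table that are given with single members below. The letters were present in 4 of 12 cytosolic members with a promoter, in 1 of 2 members of both compartments (Gars) and in 0 of 14 mitochondrial members, and in 1304 of 32851 windows of all genes (3.97%) and 766 of 21263 windows of protein-coding genes (3.6%). A match is a description of the sequence and not a measured binding site. No promoter was matched for 10 members, among them Cars, Hars, Hars2, Lars, Nars, Pars2, Rars, Vars and Wars.

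Replicate 2 stood apart from replicates 1 and 3 in each group, least with PBS and most with the vitamins, and the values of several members rest on it. Its counts differed from theirs by a chi-square per degree of freedom of 68.21 and 74.9 with PBS (28.9 between replicates 1 and 3), 136 and 158 with RANKL (24.6) and 437 and 282 with the vitamins (49.5), so no libraries of a group were copies of each other. Values by library are given here in the order of replicates 1, 2 and 3. Among the 38 members PBS replicate 2 was the highest PBS library for 8 and the lowest for 12. Replicate 2 of the RANKL group had the highest FPKM (a read level per unit of transcript length and of library size) of the 3 RANKL libraries for 18 of 19 cytosolic members and for 32 of 38 members in all. Vitamin replicate 2 was the lowest of its group for 10 of 19 cytosolic members and the highest for 8, and it was the highest for 13 of 17 mitochondrial members.

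Macrophage markers were present in all groups (Adgre1, the F4/80 antigen, had 485 ± 26.1 FPKM with PBS, 454 ± 73.1 with RANKL and 239.9 ± 17.8 with the vitamins, mean ± SD, n = 3), although 6 of 8 were lower and 1 of 8, Cd68, was higher with the vitamins than with RANKL alone. All 9 osteoclast markers were higher with RANKL than with PBS (2.35% of all tested genes were). With the vitamins 8 of the 9 were lower than with RANKL (17.2% of all tested genes were). The summed FPKM of 8 proliferation genes was 21.6, 94.7 and 21.3 with PBS, 51.8, 230.2 and 70.3 with RANKL and 158, 263 and 198 with the vitamins, highest in replicate 2 of each group. None of the 8 was called between the vitamin and RANKL groups by edgeR, by DESeq2 or at an unadjusted p below 0.05. The 9 neutrophil markers summed to 108 to 261 FPKM with PBS, 53.1 to 187 with RANKL and 15.1 to 32.7 with the vitamins. Ltf, Camp, Mpo, Elane and Ly6g were listed at 0 in the vitamin group, and 7 of the 8 tested were lower than with RANKL (17.2% of all tested genes were). B and T cell markers and stromal markers summed to less than 1 FPKM in every library. The part of these cell types and of proliferation in the results below was not tested, and in bulk RNA fewer cells of a type and less RNA per cell cannot be told apart.

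In the PBS group the cytosolic members were, as a set, the more abundant. Their summed FPKM was 250.5, 257 and 256 in the 3 PBS libraries, against 59.7, 57.5 and 58.7 for the mitochondrial members and 33.3, 33.0 and 31.7 for Gars and Kars together. The highest level belonged to Nars, the asparaginyl enzyme, at 56.7 ± 3.83 FPKM, followed by Qars, the glutaminyl enzyme, at 27.4 ± 0.2303 and Sars, the seryl enzyme, at 24.05 ± 0.971 (mean ± SD, n = 3). The lowest cytosolic member was Tarsl2, a second threonyl enzyme, at 1.09 ± 0.111 FPKM. Among the mitochondrial members Lars2, the leucyl enzyme, stood highest at 14.2 ± 1.53 FPKM, and Ears2, the glutamyl enzyme, stood lowest at 0.423 ± 0.115. All 38 members passed the filter on low counts.

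Between RANKL alone and PBS the family had a single call, Iars, a share near that of all tested genes and one that depended on the analysis. A gene was called higher or lower where its adjusted p-value in edgeR's quasi-likelihood test (Benjamini-Hochberg adjustment over 17002 genes) was below 0.05. With RANKL 1 of 38 members was called higher than with PBS and 0 were called lower, while 2.35% of all tested genes were called higher and 1.26% lower. At an unadjusted p below 0.05, 7 members were higher and 0 lower, beside 9.96% of all tested genes higher and 8.65% lower. DESeq2 called 5 members higher and 0 lower, beside 6.21% and 3.78% of all tested genes. The median log2 fold change was 0.18 over the cytosolic members and 0.21 over the mitochondrial members, against -0.04 over all tested genes. Without RANKL replicate 2 these medians were 0.046 and 0.081.

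The called member was Iars, the isoleucyl enzyme of the multisynthetase complex. Its FPKM was 14.6, 14.2 and 13.6 in the PBS libraries and 21.3, 28.9 and 18.9 in the RANKL libraries, so the groups did not overlap and RANKL replicate 2 was the highest. The log2 fold change was 0.57 ± 0.13 (SE), with an adjusted p of 0.0464 in edgeR's quasi-likelihood test. With the replicate number as a block the adjusted p was 0.0524 and no member was called, and the call was also lost when any of the 3 PBS libraries, RANKL replicate 1, RANKL replicate 2 or RANKL + Vit D + K replicate 3 was left out (adjusted p of 0.0722 to 0.164). Without replicate 2 of both RANKL-treated groups, 3 members were called higher and 1 lower, beside 4.81% and 3.08% of all tested genes. Dars, the aspartyl enzyme of the complex, and Vars, the valyl enzyme, had log2 fold changes of 0.59 ± 0.15 and 0.62 ± 0.18 that did not pass (adjusted p of 0.0672 and 0.104 in edgeR's test).

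**Figure D1:**
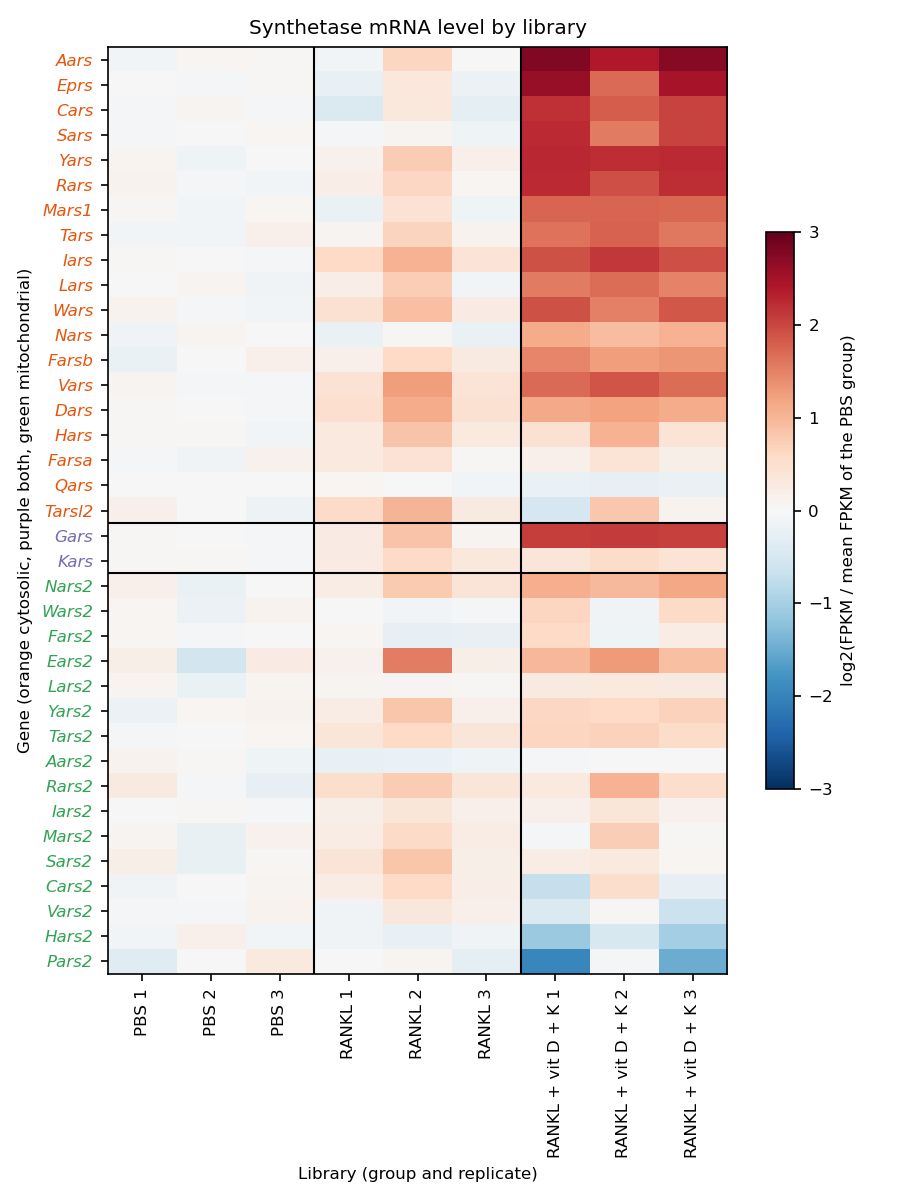
FPKM of 37 synthetase genes (rows, grouped by compartment) in each of the 9 libraries (columns), drawn as log2 of the ratio to the mean of the PBS group. The upper rows, from Aars to Vars, are darkest in the 3 RANKL + Vit D + K libraries, while the mitochondrial rows at the bottom move less and in both directions, with Ears2 and Nars2 redder and Hars2 blue in these libraries.

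With vitamins D and K the cytosolic and the mitochondrial sets parted. The summed FPKM of the cytosolic members was 271, 358 and 259 in the RANKL libraries and 774, 679 and 732 in the vitamin libraries, without overlap. For the mitochondrial members the sums were 65.1, 72.4 and 62.3 with RANKL and 63.4, 73.7 and 63.7 with the vitamins, and the groups overlapped throughout. The 2 genes for both compartments went from 38.7, 55.3 and 37.0 to 99.9, 104 and 99.9.

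In counts, 19 of 38 members were called higher with the vitamins than with RANKL alone, 1 was called lower and 18 were not called, beside 16.4% of all tested genes called higher and 17.2% called lower. This is the contrast for which the family was picked, and nothing is read from the excess. By compartment, 15 of 19 cytosolic members, 1 of 2 for both compartments and 3 of 17 mitochondrial members were higher. The median log2 fold change was 1.41 for the cytosolic members (2.66-fold), 0.22 for the mitochondrial members and -0.04 for all tested genes. No cytosolic member was called lower by edgeR, by DESeq2 (21.6% of all tested genes) or at an unadjusted p below 0.05 (23.6%), while limma on log2(FPKM + 1) called Qars lower (-0.20).

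The calls of 15 members held in all 18 alternative analyses, and those of Dars, Nars2, Lars2 and Tars2 held in 11, 13, 7 and 6 of them. Without replicate 2 of both RANKL-treated groups, 25 members were called higher and 3 lower, beside 21.8% and 27.3% of all tested genes. The 6 gained in the higher direction were Hars, Kars, Ears2, Fars2, Wars2 and Yars2. On log2(FPKM + 0.1) with limma, where the median of all tested genes moved to -0.16 and 2184 genes were called higher and 3953 lower (2796 and 2929 in edgeR), 14 cytosolic members and Gars were called higher, 0 mitochondrial members were higher and Hars2 was lower.

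**Figure D2:**
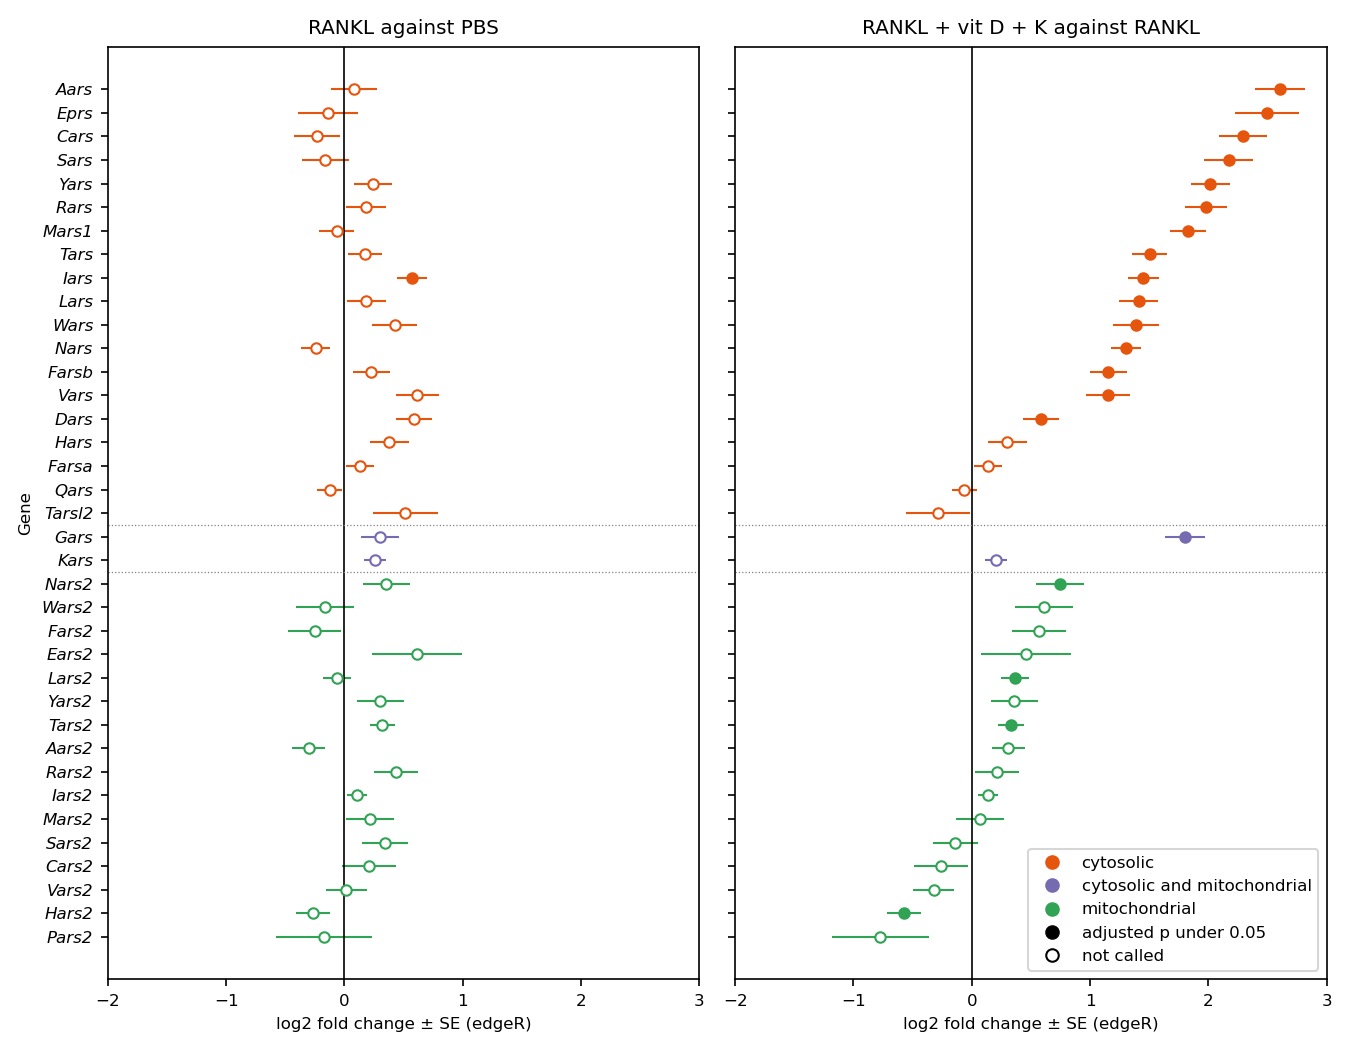
Log2 fold change with its standard error from edgeR for 37 members, RANKL against PBS on the left and RANKL + Vit D + K against RANKL on the right, colored by compartment and filled where the adjusted p-value was below 0.05. On the right the cytosolic members run from 2.60 (Aars) to -0.29 (Tarsl2) and the mitochondrial members from 0.75 (Nars2) to -0.77 (Pars2).

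The multisynthetase complex contains 8 of the members, and 6 of them were higher with the vitamins (16.4% of all tested genes were). Eprs, a single protein that charges both glutamate and proline transfer RNAs, had 6.93, 6.59 and 7.09 FPKM with PBS, 5.94, 8.57 and 6.07 with RANKL and 42.04, 22.4 and 37.9 with the vitamins. The vitamin libraries were all above the RANKL libraries, with replicate 2 well below the other two, and the log2 fold change was 2.498 ± 0.27 (5.65-fold). Rars, the arginyl enzyme, had 14.8, 13.3 and 13.04 FPKM with PBS, 15.9, 21.3 and 14.2 with RANKL and 64.7, 52.2 and 63.6 with the vitamins, a log2 fold change of 1.98 ± 0.17. Mars1, the methionyl enzyme that also supplies the initiator transfer RNA, was nearly constant among the vitamin libraries at 50.2, 50.01 and 49.1 FPKM, against 13.01, 20.3 and 13.7 with RANKL and 15.2, 14.1 and 15.5 with PBS. Its log2 fold change over RANKL was 1.83 ± 0.15, and its gene shares 68 exon bases with Ddit3 on the opposite strand (1.99% of the Mars1 exon bases). Whether the counting used strand is not given in the sources used here, and Ddit3 also rose.

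Iars and Lars, the isoleucyl and leucyl enzymes of the complex, moved by similar amounts. Iars went on from its RANKL level to 53.5, 61.9 and 54.5 FPKM in the vitamin libraries, a log2 fold change of 1.45 ± 0.13. Lars had 9.47, 10.03 and 8.76 FPKM with PBS, 10.8, 15.6 and 8.89 with RANKL and 27.97, 29.9 and 26.3 with the vitamins, with RANKL replicate 2 again the highest of its group and still below every vitamin library, and its log2 fold change was 1.41 ± 0.17. Dars, the sixth, was the smallest of those called, at 0.59 ± 0.15: the lowest vitamin library fell just under RANKL replicate 2, with 13.4, 20.6 and 13.04 FPKM with RANKL and 20.8, 21.9 and 20.5 with the vitamins.

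The other two members of the complex did not follow. Qars had 27.6, 27.4 and 27.2 FPKM with PBS, 28.7, 27.5 and 25.9 with RANKL and 23.9, 23.2 and 23.7 with the vitamins, and although every vitamin library was below every RANKL library in FPKM, the log2 fold change was -0.06 ± 0.11 after edgeR's normalization and was not called there. Kars, the lysyl enzyme of both compartments, had 13.02, 13.01 and 12.2 FPKM with PBS, 15.2, 18.95 and 15.9 with RANKL and 16.5, 18.7 and 16.9 with the vitamins, overlapping between the RANKL and vitamin groups, with a log2 fold change of 0.205 ± 0.09. Of the scaffold proteins, Eef1e1 was higher (log2 fold change 1.46 ± 0.23), and Aimp1 and Aimp2 were not called (0.14 ± 0.11 and 0.29 ± 0.27).

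The largest change in the family was that of Aars, the alanyl enzyme, which also edits serine and glycine charged in error. It lies on chr8:111033144-111046743 (GRCm38, plus strand) and had 8.603, 9.44 and 9.34 FPKM with PBS, 8.601, 14.2 and 9.01 with RANKL and 62.6, 48.5 and 60.5 with the vitamins. All vitamin libraries stood far above all others, and the log2 fold change was 2.604 ± 0.21, or 6.08-fold. Cars, the cysteinyl enzyme, had 6.09, 6.65 and 6.13 FPKM with PBS, 4.68, 7.86 and 5.13 with RANKL and 28.9, 22.2 and 25.8 with the vitamins and a log2 fold change of 2.29 ± 0.20. Sars had 23.02, 24.2 and 24.95 FPKM with PBS, 23.1, 25.6 and 21.8 with RANKL and 114, 71.1 and 97.3 with the vitamins, with a log2 fold change of 2.17 ± 0.20. In these genes RANKL replicate 2 was the highest RANKL library and vitamin replicate 2 the lowest vitamin library, which narrows the gap between the groups without closing it.

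Yars, the tyrosyl enzyme, had 4.697, 4.06 and 4.47 FPKM with PBS, 4.84, 7.45 and 4.87 with RANKL and 20.97, 20.3 and 20.7 with the vitamins, and its vitamin libraries lay within 1 FPKM of each other. The log2 fold change was 2.01 ± 0.16. Tars, the main cytosolic threonyl enzyme, had 6.55, 6.59 and 7.67 FPKM with PBS, 7.36, 10.96 and 7.51 with RANKL and 21.6, 23.6 and 20.6 with the vitamins and a log2 fold change of 1.503 ± 0.15. Its paralog Tarsl2 behaved otherwise: it had 1.21, 1.08 and 0.993 FPKM with PBS, 1.62, 2.22 and 1.32 with RANKL and 0.778, 1.91 and 1.19 with the vitamins, vitamin replicate 2 lay above RANKL replicates 1 and 3, and the log2 fold change of -0.29 ± 0.27 was not called.

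Wars, the tryptophanyl enzyme, is known as an interferon gamma-induced gene. It had 8.48, 7.703 and 7.46 FPKM with PBS, 10.8, 14.6 and 9.34 with RANKL and 29.8, 22.5 and 28.7 with the vitamins, with no overlap between the RANKL and vitamin groups, and a log2 fold change of 1.39 ± 0.19. Of 12 interferon gamma response genes 11 were lower in the vitamin group, as given with the related lists. The remaining called cytosolic genes were Nars with a log2 fold change of 1.303 ± 0.13, Farsb with 1.15 ± 0.16 and Vars with 1.15 ± 0.18, and Hars, the histidyl enzyme, was not called (0.300 ± 0.16), with 16.01, 23.8 and 16.02 FPKM with RANKL and 18.1, 27.03 and 17.3 with the vitamins.

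Cytosolic phenylalanyl-tRNA synthetase is built from Farsa (alpha) and Farsb (beta) subunits, and their messages separated with the vitamins. Farsa, on chr8:84856989-84869257 (plus strand), had 7.02, 6.65 and 7.74 FPKM with PBS, 8.81, 9.605 and 7.29 with RANKL and 7.98, 9.45 and 8.08 with the vitamins, and the vitamin libraries overlapped those with RANKL but lay above those with PBS. Farsb, on chr1:78417975-78488897 (minus strand), had 11.5, 13.5 and 14.8 FPKM with PBS, 14.7, 20.2 and 16.03 with RANKL and 36.4, 31.6 and 33.3 with the vitamins. The ratio of Farsb to Farsa was 1.64, 2.02 and 1.92 in the PBS libraries, 1.67, 2.10 and 2.20 in the RANKL libraries and 4.56, 3.35 and 4.12 in the vitamin libraries, a log2 difference of 1.01 between the last groups (exact two-sided permutation p of 0.1, the smallest that 3 libraries against 3 allow). This pair was singled out after its values were seen, and 9.47% of the Farsb exon bases overlap Sgpp2 on the opposite strand.

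Gars, the glycyl enzyme, makes both its cytosolic and its mitochondrial form from a single gene, as Kars does. Gars lies on chr6:55038007-55079500 (plus strand) and had 20.3, 19.96 and 19.5 FPKM with PBS, 23.5, 36.3 and 21.1 with RANKL and 83.5, 85.5 and 82.96 with the vitamins. The vitamin libraries were within 3 FPKM of each other and more than 2 times every RANKL library, and the log2 fold change was 1.801 ± 0.17. Kars, given above with the complex, was not called, so the 2 dual genes differed in their calls, and the difference between them was not tested.

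**Figure D3:**
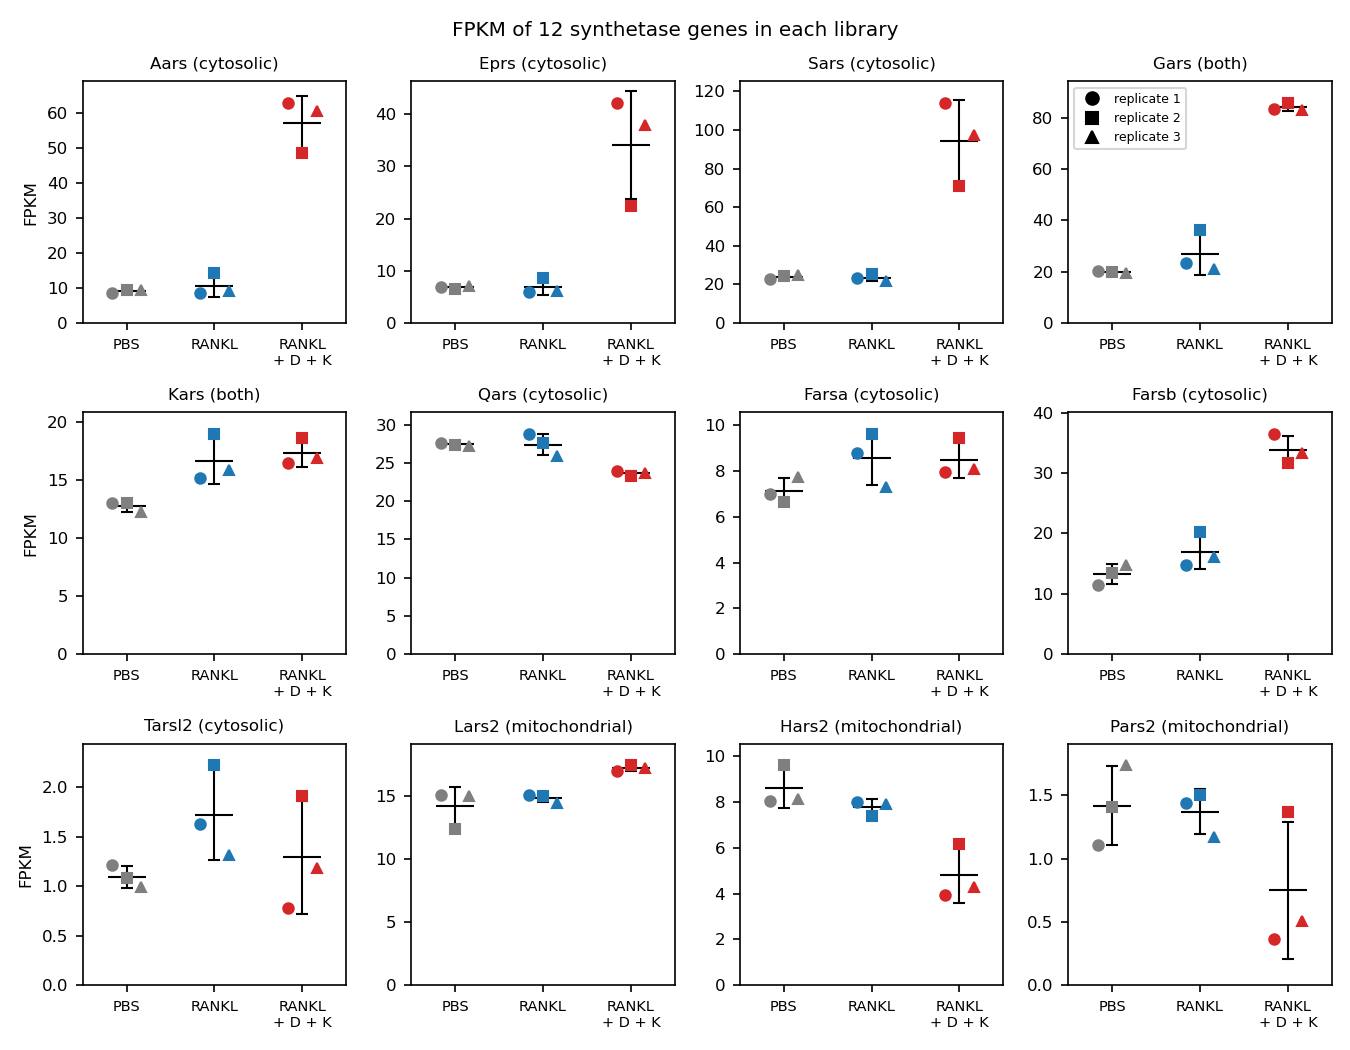
FPKM in each library for 12 members, with the mean and SD of the 3 libraries of each group as bars and a symbol for each replicate number. Aars, Eprs, Sars, Gars and Farsb stand clear of both other groups with the vitamins, Kars, Farsa and Tarsl2 overlap their RANKL levels, and Hars2 is below them, from 7.38 to 8.01 FPKM with RANKL and from 3.95 to 6.15 with the vitamins.

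Among the mitochondrial enzymes, 3 of 17 were called higher, 1 lower and 13 neither way, so the share called higher was near the 16.4% of all tested genes and is no result about these enzymes. Lars2 had 15.1, 12.4 and 15.03 FPKM with PBS, 15.1, 14.98 and 14.5 with RANKL and 17.00, 17.4 and 17.2 with the vitamins, a rise of 0.36 ± 0.12 on the log2 scale. Tars2, the threonyl enzyme, had 3.43, 3.55 and 3.72 FPKM with PBS, 4.61, 5.39 and 4.63 with RANKL and 5.57, 5.77 and 5.22 with the vitamins and a log2 fold change of 0.33 ± 0.11, with 1 vitamin library below RANKL replicate 2. Nars2, the asparaginyl enzyme, rose most, by 0.75 ± 0.20 on the log2 scale, from 0.778, 1.15 and 0.874 to 1.41, 1.301 and 1.49 FPKM. The 3 rises were all smaller than that of any called cytosolic member other than Dars.

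Hars2, the mitochondrial histidyl enzyme, was the only member called lower. It had 8.06, 9.601 and 8.13 FPKM with PBS, 8.01, 7.38 and 7.94 with RANKL and 3.95, 6.15 and 4.27 with the vitamins, the RANKL and vitamin groups did not overlap, and its log2 fold change was -0.57 ± 0.14. The highest vitamin library was replicate 2, and leaving it out made the change larger, at -0.81 without replicate 2 of both RANKL-treated groups. The call was lost in 4 of 18 alternatives, those without RANKL replicate 1 or 3 or without RANKL + Vit D + K replicate 1 or 3 (log2 fold changes of -0.49 to -0.53). Hars2 and Hars are neighbours in opposite orientation that share 195 exon bases (4.56% of those of Hars2 and 7.97% of those of Hars), so reads there could be counted for either.

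The 13 mitochondrial members without a call had log2 fold changes between 0.61 and -0.77. Pars2, the prolyl enzyme, had 1.11, 1.41 and 1.74 FPKM with PBS, 1.44, 1.505 and 1.17 with RANKL and 0.367, 1.37 and 0.504 with the vitamins: replicates 1 and 3 of the vitamin group were below every other library and replicate 2 was not, so the log2 fold change was -0.77 ± 0.41. Cars2, the cysteinyl enzyme, had 2.41, 3.13 and 2.37 FPKM with RANKL and 1.29, 2.99 and 1.76 with the vitamins (1.95, 2.08 and 2.21 with PBS), with the same exception of replicate 2. The log2 fold change of Cars2 was -0.26 ± 0.23, and neither gene was called with all libraries. Without replicate 2 of both RANKL-treated groups, a choice made after the data were seen, Pars2 and Cars2 were called lower (-1.44 and -0.50). When 1 library was left out, Pars2 ranged from -1.43 to -0.47 and Cars2 from -0.56 to -0.061.

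Wars2, the tryptophanyl enzyme, had 1.94, 1.64 and 2.02 FPKM with PBS, 1.86, 1.78 and 1.803 with RANKL and 2.91, 1.73 and 2.76 with the vitamins, and here vitamin replicate 2 was the one that stayed at the RANKL level (log2 fold change 0.61 ± 0.24, not called). Aars2, the alanyl enzyme, had 2.74, 2.62 and 2.33 FPKM with PBS, 2.200, 2.24 and 2.34 with RANKL and 2.48, 2.58 and 2.54 with the vitamins, with every vitamin library above every RANKL library but a log2 fold change of only 0.31 ± 0.14. Ears2 had 0.478, 0.291 and 0.501 FPKM with PBS, 0.463, 1.23 and 0.481 with RANKL and 0.843, 1.02 and 0.797 with the vitamins, where RANKL replicate 2 exceeded every vitamin library (0.46 ± 0.38). None of these 3 genes was called with all libraries. Without replicate 2 of both RANKL-treated groups Wars2 and Ears2 were called higher, with log2 fold changes of 0.78 and 0.94, as were Wars2 without vitamin replicate 2 alone (0.86) and Ears2 without RANKL replicate 2 alone (1.01).

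Yars2, the tyrosyl enzyme, had 1.68, 1.96 and 2.04 FPKM with PBS, 2.22, 3.39 and 2.11 with RANKL and 2.91, 2.89 and 3.06 with the vitamins (0.36 ± 0.20, not called). Its log2 fold change was 0.56 without RANKL replicate 2, which was not called, and 0.60 without replicate 2 of both RANKL-treated groups, which was. Rars2, the arginyl enzyme, had 4.99, 4.003 and 3.48 FPKM with PBS, 6.04, 7.09 and 5.39 with RANKL and 5.09, 8.54 and 5.998 with the vitamins (0.22 ± 0.19). Iars2, the isoleucyl enzyme, had 6.71, 6.805 and 6.49 FPKM with PBS, 7.54, 8.56 and 7.43 with RANKL and 7.43, 8.62 and 7.34 with the vitamins (0.14 ± 0.09), and 22.9% of its exon bases overlap Rab3gap2 on the opposite strand, so its level is uncertain. In all of these the RANKL and vitamin libraries overlapped.

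Sars2, the seryl enzyme, had 2.395, 1.83 and 2.17 FPKM with PBS, 2.77, 3.79 and 2.39 with RANKL and 2.48, 2.602 and 2.21 with the vitamins (-0.14 ± 0.19), and Mars2, the methionyl enzyme, had 0.873, 0.6998 and 0.893 FPKM with PBS, 0.955, 1.22 and 0.961 with RANKL and 0.784, 1.38 and 0.847 with the vitamins (0.07 ± 0.20). Both sets of libraries overlapped, and the sign of each estimate turned when single libraries were left out. Fars2 (0.57 ± 0.23) and Vars2 (-0.32 ± 0.17), the phenylalanyl and valyl enzymes, were not called either. Without vitamin replicate 2 Fars2 was called higher (0.78).

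The contrast between compartments was also read within each library, as the ratio of the cytosolic to the mitochondrial gene for the same amino acid, which cancels library size. Of 17 such pairs (Eprs pairs with both Ears2 and Pars2, and Fars2 with both Farsa and Farsb), the ratio was higher with the vitamins than with RANKL in 16, with no overlap between libraries in 15, and the median log2 difference was 1.52. Between RANKL and PBS the ratio was higher in 9 pairs and lower in 8, with a median log2 difference of 0.0087, and libraries did not overlap in 5 of the higher and 5 of the lower pairs. The exact two-sided permutation p for any pair cannot go below 0.1 with 3 libraries against 3, and the pairs share the genes that picked the family. How often ratios of other gene pairs separate in this way was not computed, so nothing is read from the counts of pairs without overlap.

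The log2 ratio of Aars to Aars2 was 1.65, 1.85 and 2.01 in the PBS libraries, 1.97, 2.66 and 1.94 in the RANKL libraries and 4.66, 4.23 and 4.57 in the vitamin libraries. On the linear scale the geometric mean was 4.57 Aars per Aars2 in FPKM with RANKL and 22.5 with the vitamins. The pair Lars/Lars2 crossed the line of equal levels: its log2 ratio was -0.67, -0.31 and -0.78 with PBS, -0.48, 0.06 and -0.70 with RANKL and 0.72, 0.78 and 0.61 with the vitamins. Leucine thus had more message for its mitochondrial than for its cytosolic enzyme in 5 of the 6 libraries without vitamins and in 0 of the 3 with them.

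The largest differences were in Eprs/Pars2 (log2 3.39) and Cars/Cars2 (2.62), where the mitochondrial partner was also lower in vitamin replicates 1 and 3. Hars/Hars2 had log2 ratios of 0.73, 0.49 and 0.60 in the PBS libraries, 1.00, 1.69 and 1.01 in the RANKL libraries and 2.19, 2.14 and 2.02 in the vitamin libraries, although Hars itself was not called. The exception in direction was Farsa/Fars2, with a difference of -0.38 and overlapping libraries, and Farsb/Fars2 overlapped as well (0.63). Nars/Nars2 changed little among the others (0.54), since both genes rose.

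**Figure D4:**
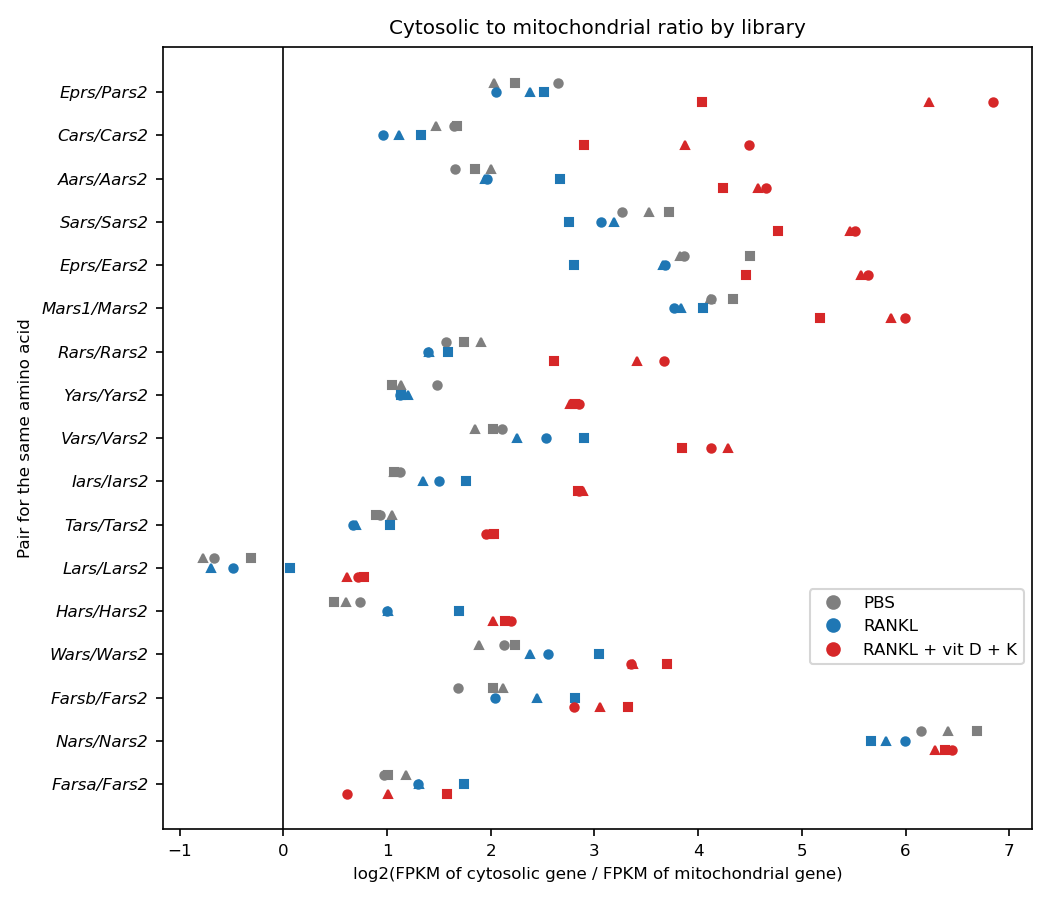
Log2 ratio of the FPKM of the cytosolic to that of the mitochondrial gene for each of 17 pairs, with a point for each library (circle, square and triangle for replicates 1, 2 and 3) colored by group. The vitamin libraries lie to the right of the RANKL libraries without overlap in 15 pairs, Lars/Lars2 crosses 0, and Farsa/Fars2 is the pair that moves the other way.

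The members can also be grouped by features that the rule did not use. By the complex, 6 of 8 of its members were higher (median log2 fold change 1.43), and so were 9 of 12 cytosolic members outside it (1.35). By the structural class of the catalytic domain, 9 of 18 class I and 9 of 19 class II members were higher, with Eprs, which has a domain of each class, left aside. In the same contrast 16.4% of all tested genes were higher, and nothing is read from these counts.

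Related genes were grouped in lists drawn up with earlier results of these data known, and their counts are descriptions. Of 20 genes of the amino acid response that ATF4 drives, 18 were higher with the vitamins than with RANKL (16.4% of all tested genes were). The median log2 fold change was 3.24. By edgeR, by DESeq2 or at an unadjusted p below 0.05, 0 were lower, beside 17.2%, 21.6% and 23.6% of all tested genes. Trib3, a pseudokinase that restrains the response, had 0.375, 0.725 and 0.721 FPKM with RANKL and 123, 87.4 and 114 with the vitamins, a log2 fold change of 7.62 ± 0.32. Atf4 itself had 33.9, 47.96 and 34.1 FPKM with RANKL and 408, 216 and 343 with the vitamins (3.24 ± 0.27), and Ddit3, the stress factor CHOP, had 4.84, 5.37 and 4.88 and 122, 68.7 and 113 (4.503 ± 0.27). Vitamin replicate 2 was the lowest vitamin library for 12 of the 20 genes, these 3 among them, and the highest for 7, such as Chac1 (5.69, 35.5 and 6.26 FPKM) and Psat1 (14.9, 33.96 and 14.95). Slc7a11, the cystine importer, had a log2 fold change of 4.46 ± 0.46, and Ddit4 and Vldlr were not called (1.56 ± 0.67 and 0.73 ± 0.37).

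Of the 7 listed genes around eIF2α, which are Eif2s1 (eIF2α itself) and its kinases and phosphatase subunits, 4 were higher and 3 lower. Of all tested genes 16.4% were higher and 17.2% lower. Eif2s1 was among the higher (0.56 ± 0.16). Ppp1r15a, the inducible subunit that dephosphorylates eIF2α, had the largest rise (3.22 ± 0.42), and Eif2ak4, the kinase GCN2 that senses uncharged transfer RNA, rose by 0.98 ± 0.22 on the log2 scale. Eif2ak2, the kinase PKR that responds to double-stranded RNA, was lower (-1.602 ± 0.37), as were Eif2ak3 and Eif2ak1 (-0.396 ± 0.11 and -0.33 ± 0.10). The 12 interferon gamma response genes had a median log2 fold change of -4.30, with 11 lower (17.2% of all tested genes were) and Ido1 not called. Cxcl9 was listed at 0 in the vitamin group, and Ciita, the activator of MHC class II genes, had 11.1, 3.88 and 12.4 FPKM with RANKL and 0.0491, 0.121 and 0.09204 with the vitamins (-6.59 ± 0.57).

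Elongation factors take charged transfer RNA to the ribosome and move it through. Of 9 genes listed with them 1 was higher (Gfm2, which acts in the recycling of mitochondrial ribosomes, 0.47 ± 0.14) and 1 lower (Tufm, the mitochondrial carrier of charged transfer RNA, -0.52 ± 0.16), and Eef1a1, its cytosolic counterpart, was not called (-0.01 ± 0.13). Mammalian mitochondria have no glutaminyl synthetase and make glutaminyl transfer RNA by transamidation, and of 4 genes for that step and for formylation of the initiator 1 was lower (Gatc, -0.81 ± 0.16) and 3 were not called. Of 7 genes for proofreading, transfer RNA modification and selenocysteine, 1 was higher (Yrdc, 0.69 ± 0.19) and 6 were not called. In this contrast, vitamins against RANKL, 16.4% of all tested genes were called higher and 17.2% lower, so nothing is read from the counts of these short lists.

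**Figure D5:**
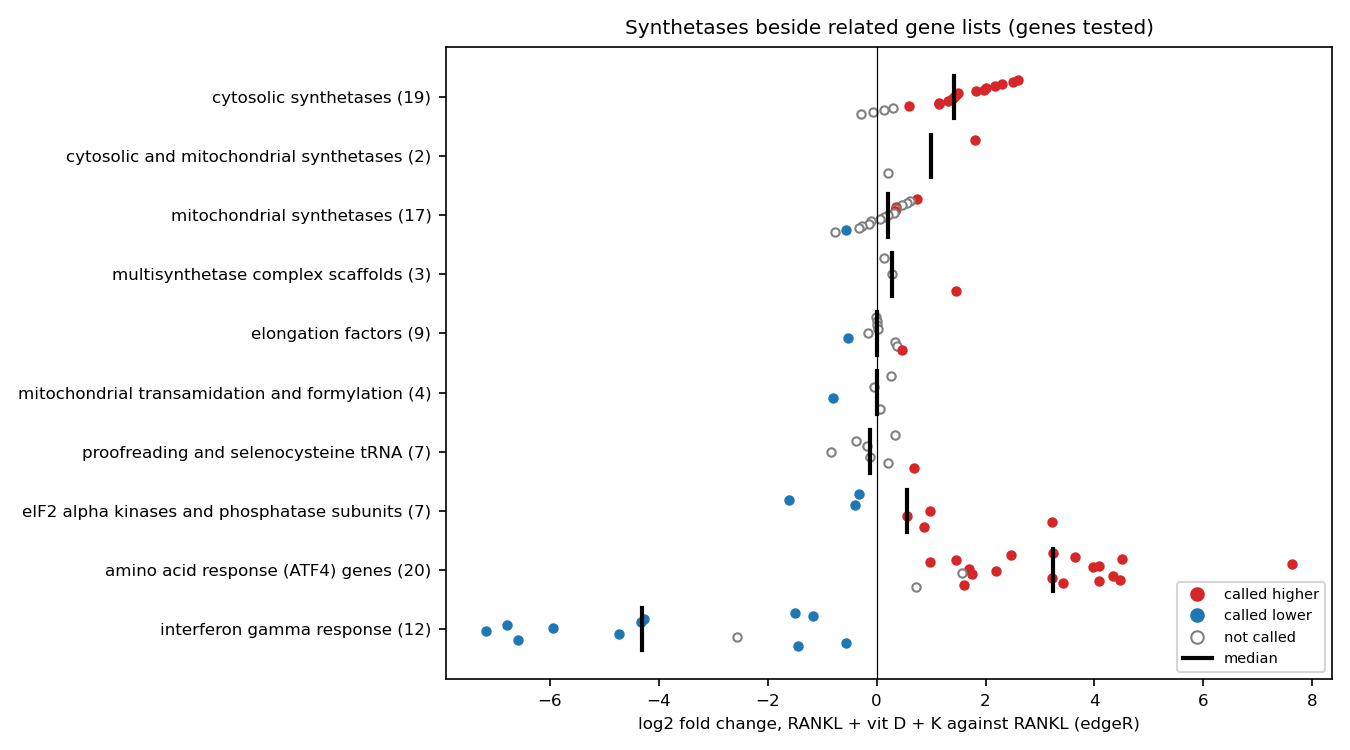
Log2 fold change with the vitamins over RANKL alone for the tested genes of each list, with a point per gene colored by its call and a bar at the median. The cytosolic synthetases sit between the amino acid response genes, with a median of 3.24, and the elongation factors, with a median of 0.01.

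Against the PBS group, in a contrast that shares the vitamin libraries with the one above and is likewise given as a description, 24 members were higher with the vitamins, 1 was lower and 13 were not called, beside 19.8% of all tested genes higher and 21.0% lower. The medians were 1.76 for the cytosolic and 0.30 for the mitochondrial members. Aars was higher by 2.68 ± 0.21 and Gars by 2.100 ± 0.17 on the log2 scale, and Hars2 was again the member called lower (-0.84 ± 0.14). Called here but not against RANKL were Hars (0.68 ± 0.17), Kars (0.46 ± 0.09), Ears2 (1.07 ± 0.38), Yars2 (0.66 ± 0.20), Rars2 (0.66 ± 0.19) and Iars2 (0.25 ± 0.09), while Lars2 was called only against RANKL. Farsa, Qars and Tarsl2 were the cytosolic members not called in either contrast.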

How the data were processed

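RNA from 9 BMDM samples was selected on oligo(dT) beads and sequenced in pairs on an Illumina instrument. The authors deposited 1 table with whole-number counts per gene, which they did not normalize, and FPKM values, which they scaled to transcript length and library size. The submitters' processing notes name cutadapt 1.9, HISAT2 2.0.4, StringTie 1.3.4d and edgeR, and the build hg38, whereas the gene identifiers and coordinates in the table are those of mouse GRCm38 (30 of 38 members match GENCODE M21 exactly). The counting program and its use of strand or shared reads are not given in the sources used here, so genes with overlapping neighbours or copies are uncertain (13.2% of Aars windows of 75 bases also occur in annotated transcripts of other genes, mainly its neighbour Exosc6).

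Samples were grouped by their labels. Counts were filtered with filterByExpr (17002 of 28379 genes left), normalized by TMM and compared by the quasi-likelihood test of edgeR 4.0.16 in R 4.3.3, fitted to the 9 libraries together. The p-values were adjusted over all genes by Benjamini-Hochberg with a threshold of 0.05. Standard errors were obtained from the fold change and the F value. FPKM was used for levels, for pair ratios (exact permutation tests) and, as log2(FPKM + 0.1) or log2(FPKM + 1), in limma 3.58.1. Pooled over genes, libraries of a group differed by more than counting error (chi-square per degree of freedom of 24.6 to 437). This was not checked apart for genes with low counts. The family, the gene lists (synthetase partners, elongation factors, amino acid response, eIF2α kinases, interferon gamma response and cell type markers) and the tests were chosen with earlier results of these data known. Values in every library were given for members called with RANKL, the 12 called members with the largest change with the vitamins, any called in the opposite direction, the pair partners of those 12, and Gars, Kars, Tarsl2 and Wars. Outside this rule, Qars, Farsa and Farsb were also given in every library, and Dars, Nars2 and Hars in the RANKL and vitamin libraries. The 3 largest called of each list were drawn on with Atf4 and Ddit3. Where 2 rows carried a symbol (Ddit3), the one with more counts was used. Alternatives were DESeq2 1.42.0, other size factors, filters and samples, a replicate block, limma, and each library left out. Leaving out replicate 2 of both RANKL-treated groups was chosen after the data were seen. No label says that a replicate number marks paired samples. Deviations from the group mean correlated weakly between PBS and RANKL libraries of the same number (0.12, 0.22 and 0.15 for replicates 1, 2 and 3). Between RANKL and vitamin libraries the correlations were 0.0062, 0.043 and 0.11. Libraries of unlike number were not compared, so these values cannot decide whether the numbers pair samples. A member and its pair, a marker gene and a promoter window are not reported here by name, and the member is counted in the totals of the family. As a check of the code, the edgeR and DESeq2 tests were run on simulated counts and the limma test on simulated levels, with outcomes not given here.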

Additional observations from a re-analysis of the deposited data

How the results depend on the processing

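With vitamins D and K against RANKL, the count of members called higher stayed between 15 and 25 under all alternatives, and the signs of the 20 called members did not change. The calls between RANKL and PBS were the least stable: against 1 member called higher (2.35% of all tested genes), DESeq2 called 5 (6.21%), the filter at a CPM of at least 1 called 2 (3.81%), the fit of only the 2 groups called 3 (6.32%), limma on log2(FPKM + 0.1) called 2 (3.56%), the table without a filter called 0 (1.13%), and leaving out 1 library gave 0 to 2 (0.54% to 5.46%). The shares of all genes thus moved with these settings too. With the replicate block 0 were called (3.16% of all tested genes), and Iars had a log2 fold change of 0.56. Between the vitamin and RANKL groups the block left 19 members higher, with Fars2 (0.53) called and Tars2 (0.33) not called. Whether the replicate numbers pair the samples is not known. Without replicate 2 of both RANKL-treated groups, 3 members were higher and 1 lower than in the PBS group.

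Against 1 member called lower with the vitamins than with RANKL, limma on log2(FPKM + 1) called 2 (Hars2 and Qars; 22.4% of all tested genes), the removal of both replicates 2 called 3 (27.3%), and leaving out 1 library gave 0 to 3. Against PBS, 1 member was lower in the main analysis, 2 in limma on log2(FPKM + 1), 2 without both replicates 2, and 1 to 2 when 1 library was left out. The median log2 fold change of the cytosolic members between RANKL and PBS (0.18) was 0.046 to 0.27 when 1 library was left out, lowest without RANKL replicate 2. The median log2 fold change of the mitochondrial members between RANKL and PBS (0.21) was 0.31 in limma on log2(FPKM + 0.1), 0.12 without both replicates 2 and 0.081 to 0.33 when 1 library was left out. That of the cytosolic members between the vitamin and RANKL groups (1.41) was 1.22 in limma on log2(FPKM + 1), 1.61 without both replicates 2 and 1.28 to 1.60 when 1 library was left out. That of the mitochondrial members in the same contrast (0.22) was 0.058 and 0.053 in limma with pseudocounts of 0.1 and 1, 0.12 without both replicates 2 and 0.13 to 0.27 when 1 library was left out, lowest without vitamin replicate 2. Between the vitamin and PBS groups it was 0.30, and 0.20 in limma on log2(FPKM + 1) and 0.24 to 0.39 when 1 library was left out. The cause of these differences was not tested.

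Signs turned only for members not called in the contrast concerned. Between RANKL and PBS they turned for 6 members, such as Aars, which ranged from -0.14 to 0.20 over the alternatives. The following values are for the vitamins against RANKL. In limma with pseudocounts of 0.1 and 1, Farsa had -0.0058 and -0.0057, Iars2 -0.0092 and -0.0081, and Mars2 -0.086 and -0.040. When 1 library was left out, Mars2 ranged from -0.14 to 0.18, Qars from -0.12 to 0.016 and Sars2 from -0.25 to 0.025. Without both replicates 2, Mars2 was -0.089 and Sars2 0.0087.

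The 3 libraries a group, whose cultures are not stated, limit every comparison. Depth was alike in all libraries. The counts do not show protein, charging of transfer RNA or translation, and 48 h was the only time sampled. The vitamin group differs from the RANKL group in cell state as well, since osteoclast markers were lower, and this cannot be told apart from the treatment.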
